A study of Rattus norvegicus with 10 samples.

Results

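The genes described here are 10 markers of astrocytes, *Gfap*, *Aqp4*, *Aldh1l1*, *Gja1*, *Gjb6*, *Slc1a2*, *Slc1a3*, *Glul*, *Ntsr2* and *S100b*. Every probe set whose only gene symbol in the platform annotation is one of these was included, which gave 19 probe sets for 10 genes among the 31099 probe sets of the array, of which 20832 had a single symbol. A probe set is the group of short probes that measures a transcript, and the annotation gave 5 of the genes a single probe set, *Slc1a2* 2 and *Aqp4*, *Gja1*, *Slc1a3* and *Glul* 3 each. The study restricted the food of male Wistar rats, 6 weeks old at the start, for 1 week. They received 95, 90, 80 or 70% of a daily intake recorded earlier under free feeding (5, 10, 20 and 30% calorie restriction, CR). Control rats received the full recorded intake. All rats, controls included, were fasted for 16 h before the brain was taken, which the methods describe as the hypothalamus area. For each group the RNA of 5 rats was combined and hybridized to 1 Affymetrix array, so there were 4 CR arrays at 4 different levels and 1 control array, and the spread between rats within a group was not measured.

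Astrocytes are the glial cells that surround synapses and vessels. They take up glutamate with the transporters encoded by *Slc1a2* (GLT-1) and *Slc1a3* (GLAST) and convert it to glutamine with glutamine synthetase (*Glul*). They spread potassium and small metabolites through gap junctions made of connexin 43 (*Gja1*) and connexin 30 (*Gjb6*), move water through aquaporin-4 (*Aqp4*) at their endfeet on vessels, and carry the intermediate filament protein GFAP (*Gfap*). In the hypothalamus they also store glycogen, pass lactate to neurons and take part in the sensing of nutrients.

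Of the 10 genes, 9 had a probe set above the filter on low signal, which does not show that astrocytes gave the signal. On all 5 arrays the brightest probe sets of *Gja1*, *S100b*, *Aqp4*, *Slc1a3*, *Gfap*, *Glul* and *Ntsr2* had MAS5 signals (the authors' linear scale) of 1268.5 to 7513, and those of *Gjb6* and *Aldh1l1* were 148.5 to 878. Neither *Slc1a2* probe set exceeded 60.6 on any array, and both were under the filter on low signal. Probe sets differ in how well they hybridize, so a brighter probe set does not mean a more abundant transcript, and ratios or sums of probe sets are read only as they differ between arrays.

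At 1 week the control array was unlike the CR arrays, and each value of CR against control rests on it. Its log2 signals correlated with those of the CR arrays at 0.852 to 0.874, and between CR arrays the correlation was 0.912 to 0.922 (taken over probe sets, which do not replicate anything). Signals under 10 made up 11.7 to 14.4% of the CR arrays and 24.0% of the control array. All 12 poly-A spike-in probe sets, which track added bacterial RNA, were lower in the CR mean, with a median log2 difference of -1.29. Of the 9 hybridization spike-in probe sets, 6 were higher and 3 lower in the CR mean, with a median of 0.03. The log2 ratio of the 3′ to the 5′ probe set of GAPDH, which grows as RNA shortens or labelling stops early, was 0.40 to 0.79 on the CR arrays and 0.19 on the control array, and that of beta-actin was 2.19 to 2.80 against 1.90. The diet therefore cannot be told apart from that single pool and array. The rows of the 1 month arrays correlated with the 1 week rows at only 0.036 to 0.052, so they do not follow the probe set identifiers and were not used.

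In the CR pools the neurotensin receptor gene *Ntsr2* and the folate enzyme gene *Aldh1l1* had signals 1.67-fold and 1.86-fold lower than in control, and dimmer probe sets of *Glul*, *Aqp4* and *Slc1a3* fell further, while the brightest probe sets of those 3 genes and the probe sets of *Gfap*, *Gjb6* and *S100b* had no call. The bright *Gja1* probe set was 1.32-fold higher, a difference that turned to -0.04 (log2) with median scaling, and 1 dim *Slc1a3* probe set also rose. Of the 19 probe sets, 15 passed the filter on low signal (an average log2 signal over the 5 arrays in the upper 50%), 7 of these were called lower and 2 higher, and 6 were not called (limma, Benjamini-Hochberg adjusted p under 0.05 over all 15521 probe sets tested). Over all tested probe sets 11.0% were called lower and 14.5% higher. The 9 calls came from 6 genes: *Aqp4*, *Aldh1l1*, *Slc1a3*, *Glul* and *Ntsr2* had lower calls, and *Gja1* and *Slc1a3* higher ones. The median log2 change of the 15 probe sets was -0.29, against 0.03 for all tested. All 4 CR arrays lay below control for 11 of the 15 and above it for 2, against 33.1% and 37.1% of all tested. When each array was instead centred on its median, the median of all tested probe sets moved to -0.41, the astrocyte counts became 13 lower and 1 higher, and the counts over all tested probe sets became 5057 lower and 1017 higher in place of 1712 and 2246. In bulk RNA, fewer astrocytes and less of a transcript per astrocyte cannot be told apart.

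**Figure D1:**
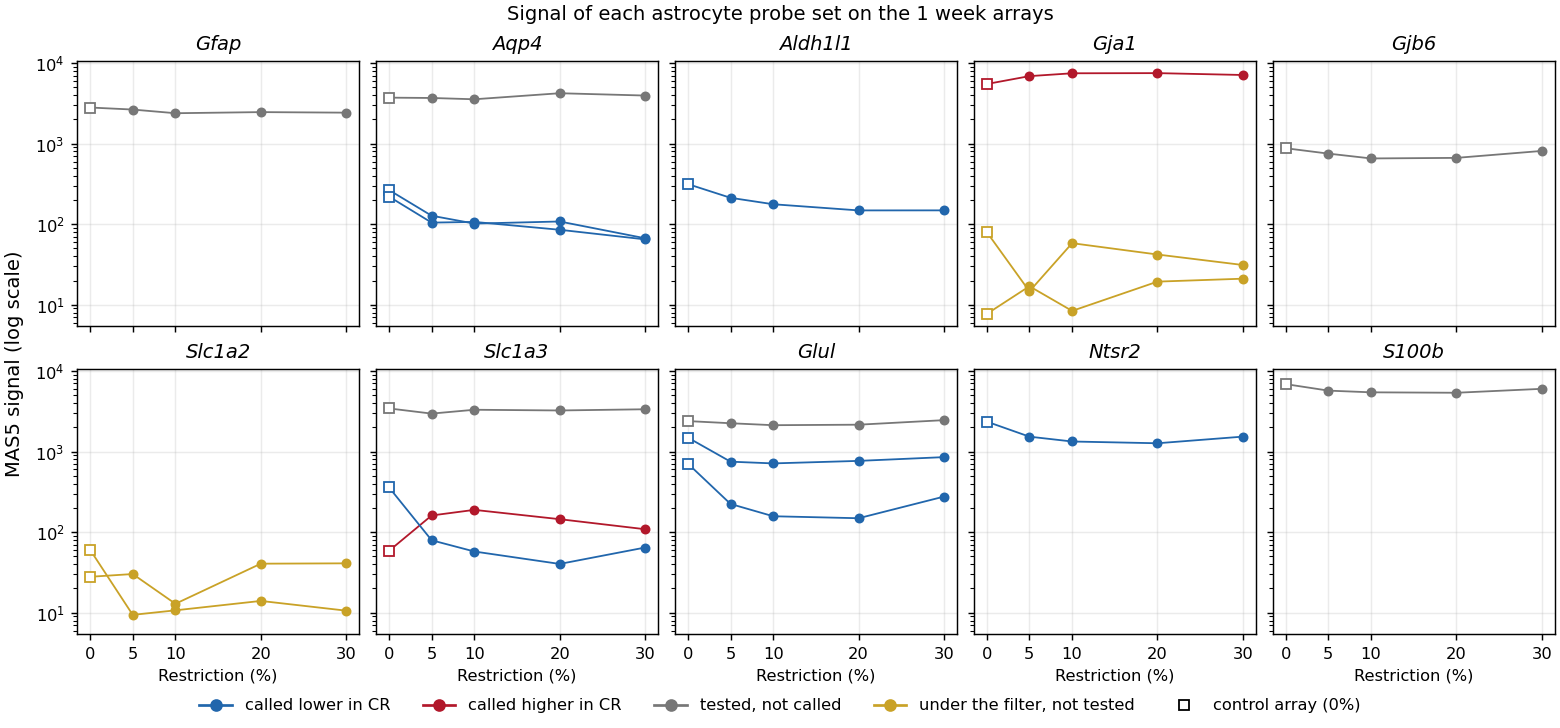
MAS5 signal (log axis) of the 19 astrocyte probe sets against restriction level, 1 panel per gene and 1 line per probe set; squares are the control array (0%) and circles the CR arrays, 1 pool of 5 rats each. Blue probe sets were called lower in CR, red higher, grey were tested and not called, and yellow were under the filter. In these values, as deposited, the bright *Slc1a3*, *Aqp4* and *Glul* probe sets are nearly flat. The dimmer *Slc1a3* probe set 1388064_a_at fell by 2.62 on the log2 scale. With median scaling the bright *Slc1a3*, *Aqp4* and *Glul* probe sets stood at -0.54, -0.39 and -0.53.

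The *Slc1a3* probe sets measure mRNA of the glutamate transporter GLAST and not uptake, and a pair of them moved in opposite directions. GLAST clears glutamate from the synapse and is also carried by radial glia. Its brightest probe set, 1368565_at, had signals of 2960.3, 3305, 3238 and 3352 at 5, 10, 20 and 30% CR, against 3434 in control. All CR values were below control by a little, with a log2 change of -0.10 ± 0.08 (SD over 4 arrays; adjusted p = 0.54). Probe set 1388064_a_at, of the type that can detect several transcripts of a gene, had 79.3, 57.5, 40.3 and 64.4 in CR, against 360.4 in control. The groups were far apart, and this probe set fell by 2.62 in log2 units (SD 0.41, adjusted p = 0.0015), the largest decrease among the 15. Probe set 1371130_at had 161, 189, 145 and 109 in CR, against 58.5 in control, a rise of 1.34 ± 0.34 (SD, n = 4; adjusted p = 0.013). Only 75 of the 1873 genes with 2 or more tested probe sets had calls in both directions, as *Slc1a3* did (4%). The range of log2 change within *Slc1a3* was 3.96, against a median range of 0.74 within these genes, and 0.374% of them had a range as wide. These genes were not matched to *Slc1a3* for the number of tested probe sets or for signal, and a range tends to widen with that number.

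*Slc1a2*, the main glutamate transporter of the forebrain, could not be followed. Probe set 1369693_a_at had 9.4, 10.7, 14.0 and 10.6 in CR, against 60.6 in control. The control value alone stood out, and the log2 change was -2.45 ± 0.24 (SD, n = 4) at low signal. Probe set 1369694_at had 30.2, 12.9, 40.6 and 41.0 in CR, against 27.9 in control, on both sides of it. Neither passed the filter, and without a filter neither was called (adjusted p = 0.051 and 0.99 by limma). The neuronal transporter *Slc1a1* had 397, 429, 360.4 and 377 in CR, against 462 in control, all below it without passing (log2 change -0.25 ± 0.11, SD, n = 4; adjusted p = 0.28).

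*Glul* encodes glutamine synthetase, which detoxifies ammonia and closes the glutamate-glutamine cycle, and glucocorticoids are known to induce it in several tissues. Its brightest probe set, 1367632_at, had 2248, 2126, 2157 and 2455 in CR, against 2390.5 in control. The groups overlapped, since the 30% array lay above control, and the log2 change was -0.09 ± 0.09 (SD, n = 4; adjusted p = 0.59). Probe set 1386870_at had 749.5, 713, 766 and 853 in CR, against 1492 in control. It was 1.94-fold lower in CR, with a log2 change of -0.96 and an SD of 0.11 over 4 arrays (adjusted p = 0.0011). Probe set 1367633_at had 224, 158, 149 and 276 in CR, against 709.8 in control. It fell by 1.86 in log2 units (SD 0.42, adjusted p = 0.0027), and its CR values were lowest at 10 and 20%. Both calls held under all 12 alternative settings.

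Among the 10 markers, *Gja1* was the only gene whose brightest probe set was called higher. *Gja1*, connexin 43, had 6895, 7480.3, 7513 and 7124 in CR on probe set 1372002_at, against 5502 in control. The CR arrays lay close together and all above control, by 0.40 ± 0.06 on the log2 scale (SD, n = 4; adjusted p = 0.013). This call rested on the scaling: the log2 change was 0.18 with cyclic loess and 0.10 with quantile scaling (adjusted p = 0.13 and 0.34), and -0.04 with median scaling. Its other probe sets did not pass the filter. Probe set 1369640_at had 14.7, 58.2, 42.1 and 31.2 in CR, against 80.1 in control, and 1369639_at had 17.0, 8.4, 19.4 and 21.1 in CR, against 7.7 in control. These moved in opposite directions at signals where a few units decide the ratio. *Gjb6*, connexin 30, had 753, 656, 667 and 813 in CR, against 878 in control. All were below control, and the log2 change of -0.29 ± 0.15 (SD, n = 4) did not pass (adjusted p = 0.19). *Gjb2*, connexin 26, which astrocytes and the meninges also carry, had 479, 505, 491.5 and 452 in CR, against 378 in control, and did not pass either (0.35 on the log2 scale, adjusted p = 0.10). Of 7 connexin relatives on the array 2 were tested, *Gjb2* among them, and neither passed.

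Water channel signals split in the same way. The bright *Aqp4* probe set 1372190_at had 3693, 3558, 4229.7 and 3958 in CR, against 3728 in control. CR values lay on both sides of control (log2 change 0.05 ± 0.11, SD, n = 4, adjusted p = 0.80 by limma). The sign was negative with median, quantile and cyclic loess scaling, and with median scaling (-0.39) this probe set was called lower. Probe set 1387397_at had 128, 102, 108 and 67.0 in CR, against 266 in control. Probe set 1368981_at had 105, 107, 85.4 and 64.9 in CR, against 221 in control. The lowest value of both was at 30%, no CR value reached control, and they fell by 1.43 (SD 0.40, adjusted p = 0.014) and 1.31 (SD 0.33, adjusted p = 0.017) on the log2 scale.

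*Aldh1l1* and *Ntsr2* fell on their only probe sets. *Aldh1l1* encodes a folate enzyme, 10-formyltetrahydrofolate dehydrogenase, and labels nearly all astrocytes. It had 213, 177, 148.5 and 148.7 in CR, against 315 in control, so that the 20 and 30% arrays were lowest. The log2 change was -0.89 ± 0.25 (SD, n = 4; adjusted p = 0.024), and the call was lost without the intensity trend (adjusted p = 0.058). *Ntsr2* encodes the low-affinity neurotensin receptor, found mainly on astrocytes. It had 1532, 1334, 1268.5 and 1533 in CR, against 2355 in control. It was 1.67-fold lower, with a log2 change of -0.74 and an SD of 0.14 over 4 arrays (adjusted p = 0.0039), and it stayed past the threshold under all 12 alternatives. Neurotensin itself (*Nts*) had 357, 330.4, 316 and 386 in CR, against 340.2 in control, on both sides of it (adjusted p = 0.93). The neuronal receptor *Ntsr1* had 122, 128, 58.0 and 60.9 in CR, against 115 in control (adjusted p = 0.56). *Sort1*, the sortilin that also binds neurotensin, was lower by 0.49 in log2 units (SD 0.12, adjusted p = 0.041), a call lost with quantile and cyclic loess scaling.

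The promoters of the 3 genes whose brightest probe set was called are shown, to set the lower *Aldh1l1* and *Ntsr2* beside the higher *Gja1*. Each is the 250 bases before the transcription start in RefSeq's GRCr8 assembly, and each gene has 1 start in that table. Capitals mark matches on either strand to any of 5 motifs. A TATA box was read as TATAAA. The CCAAT box is spelled by its own name. A GC box was searched with the letters GGGCGG. For nuclear factor I the half-site TTGGC was taken. The STAT palindrome was written TTCNNNGAA.
Aldh1l1, chr4:124616970-124617219, plus strand: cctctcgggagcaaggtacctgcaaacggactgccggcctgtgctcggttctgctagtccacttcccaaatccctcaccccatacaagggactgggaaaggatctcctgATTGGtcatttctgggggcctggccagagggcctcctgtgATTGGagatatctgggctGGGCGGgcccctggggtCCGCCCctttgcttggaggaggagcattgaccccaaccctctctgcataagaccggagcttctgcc
Ntsr2, chr6:45152845-45153094, plus strand: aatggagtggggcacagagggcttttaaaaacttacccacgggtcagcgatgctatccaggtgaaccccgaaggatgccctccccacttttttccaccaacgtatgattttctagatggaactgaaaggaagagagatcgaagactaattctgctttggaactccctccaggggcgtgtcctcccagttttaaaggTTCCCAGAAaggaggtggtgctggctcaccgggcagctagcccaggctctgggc
Gja1, chr20:36302314-36302563, plus strand: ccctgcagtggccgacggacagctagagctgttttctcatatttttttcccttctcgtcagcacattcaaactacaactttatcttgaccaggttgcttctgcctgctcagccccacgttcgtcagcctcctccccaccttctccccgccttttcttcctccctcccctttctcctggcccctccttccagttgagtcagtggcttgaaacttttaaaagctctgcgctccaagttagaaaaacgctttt

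The *Aldh1l1* window held 2 CCAAT boxes and 2 GC boxes, the *Ntsr2* window 1 STAT palindrome and the *Gja1* window none of the 5 motifs. Their GC content was 60.8%, 53.2% and 51.2%, against a median of 51.2% over all 33469 windows of the same length. The STAT palindrome occurs in 7.67% of these windows, the GC box in 30.5%, the CCAAT box in 34.0%, the NFI half-site in 40.3% and the TATA box in 12.9%. A CCAAT box and an NFI half-site share 4 letters and can overlap. Over the 10 genes, 5 of which have several starts, an NFI half-site stood in a window of 5 (*Gjb6*, *Slc1a2*, *Slc1a3*, *Glul* and *S100b*) and the TATA box in none. A match is a description of the letters only.

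The filament and calcium-binding markers had no call on the values as deposited. *Gfap*, the classical marker that increases in reactive astrocytes, had 2653, 2389, 2466 and 2427 in CR, against 2812 in control. All CR values were below control, yet the change of -0.18 ± 0.07 on the log2 scale (SD, n = 4) did not pass (adjusted p = 0.23). It was -0.27 with quantile and with cyclic loess scaling and -0.62, with a call, with median scaling. *S100b*, a calcium-binding protein that astrocytes also secrete, had 5711, 5439.9, 5372 and 6011 in CR, against 6879.6 in control. Its log2 change was -0.29 ± 0.07 (SD, n = 4; adjusted p = 0.056). It passed in 6 of 12 alternatives, among them median, quantile and cyclic loess scaling, with log2 changes of -0.73, -0.62 and -0.49 (adjusted p = 7.8e-04 to 0.0068).

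**Figure D2:**
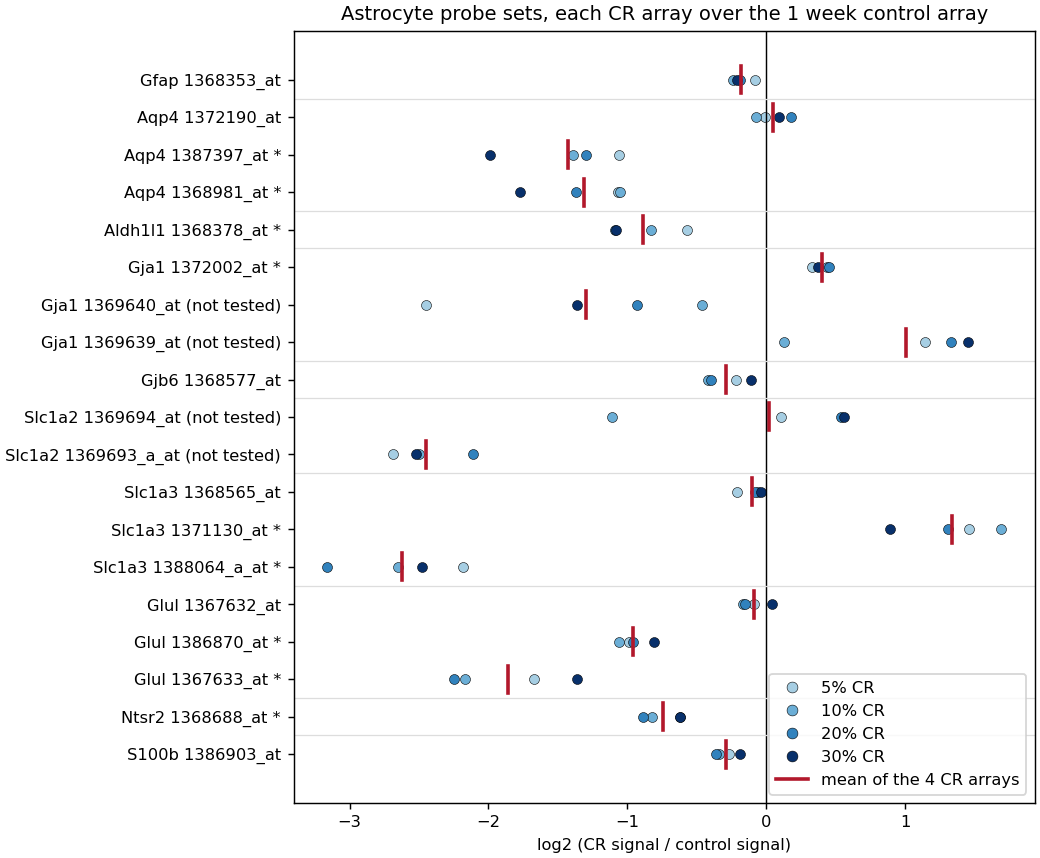
Log2 ratio of each CR array to the control array for the 19 probe sets; circles run from light (5%) to dark (30%), red bars are the mean of the 4 CR arrays, and an asterisk marks a call by limma. Of the 9 probe sets with a call, 7 have every circle left of 0 and 2 have every circle right of it; the *Gja1* call was lost under 3 scalings.

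In the values as deposited, the dimmer probe sets of a gene carried most of the decreases. Among the 9 genes with a tested brightest probe set, these brightest probe sets gave 2 lower calls, 1 higher call and 6 without a call. Their median log2 change was -0.18. That count rested on the scaling: with median scaling 8 of the 9 were called lower and 0 higher. Their median was then -0.62, against -0.41 for all tested probe sets. The 6 other tested probe sets, from *Aqp4*, *Slc1a3* and *Glul*, gave 5 lower calls and 1 higher, with a median of -1.37. For all genes with 2 or more tested probe sets, 12.5% of the brightest were called lower and 14.5% higher, and of their other probe sets 18.2% were lower and 11% higher, with medians of 0.01 and -0.11. Within an array, the ratio of the bright to a dimmer probe set is free of that array's scaling factor. For *Glul* 1367632_at over 1386870_at its log2 was 1.49 to 1.58 on the CR arrays and 0.68 on the control array. For *Slc1a3* 1368565_at over 1388064_a_at it was 5.22 to 6.33 on the CR arrays and 3.25 on the control array, and for *Aqp4* 1372190_at over 1387397_at it was 4.86 to 5.88 against 3.81. The ratio was higher on every CR array than on the control array for 7 of the 9 pairs, and the exceptions were *Slc1a3* 1371130_at, where it was lower on every CR array, and *Gja1* 1369639_at. In 3 of the 9 pairs, those of *Gja1* and *Slc1a2*, a probe set was under the filter, and among the 6 pairs of tested probe sets the ratio was higher on every CR array for 5. The 3′ excess of the control transcripts was also larger on every CR array than on the control array, and its part in these shifts was not tested. Which part of each transcript a probe set covers was not analysed here.

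**Figure D3:**
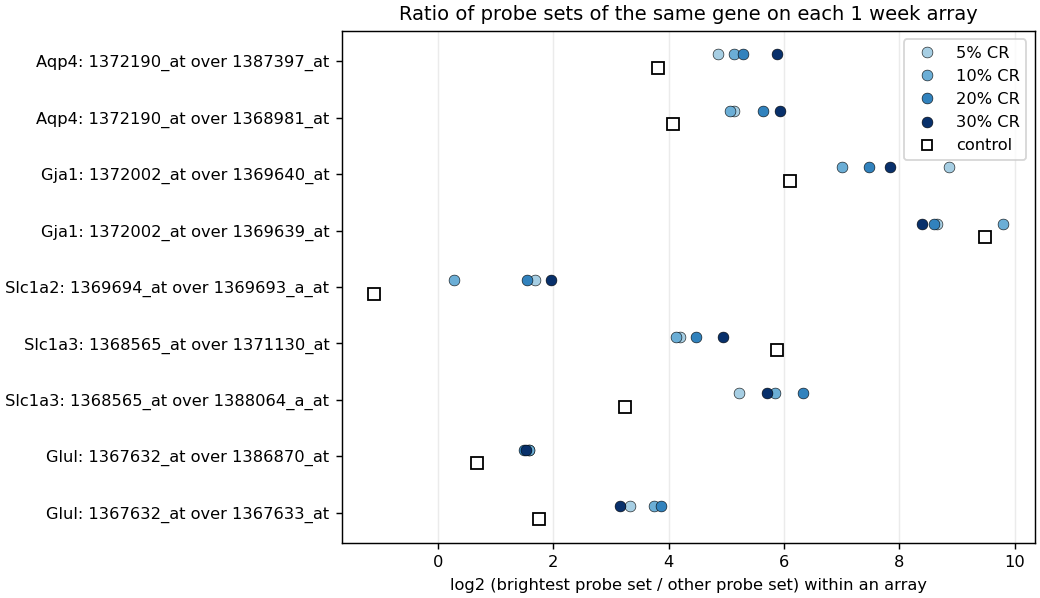
Log2 ratio of the brightest probe set to each other probe set of the same gene, within each 1 week array; circles are the CR arrays, light to dark with restriction, and squares the control array. The CR circles lie to the right of the square in 7 of 9 pairs, and in 5 of the 6 in which both probe sets passed the filter, for *Glul* 1386870_at at 1.49 to 1.58 against 0.68.

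The level of restriction made no difference that the fit could call. In the trend over the 4 CR arrays, which does not use the control array, 0 of the 15 astrocyte probe sets and 0 of 15521 overall (0.0%) were called by limma, and 743 of all tested (4.79%) had an unadjusted p under 0.05, as did 1 of the 15. That was *Slc1a3* 1371130_at, at -0.27 ± 0.12 (SE) log2 units per 10 percentage points of restriction. The slopes of the 15 ran between -0.32 for *Aqp4* 1387397_at and 0.14 for *Glul* 1367633_at. With the lowest signals at 30%, both dim *Aqp4* probe sets had slopes of -0.32 ± 0.14 and -0.29 ± 0.15 (SE), and *Aldh1l1* of -0.20 ± 0.10 (SE), with an adjusted p of 1 for each.

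Single levels were set against control by a fold of 1.5, with no test. At 5% CR, 6 of the 15 astrocyte probe sets were past it downward and 1 upward, against 14.7% and 20.7% of all tested. At 10% CR the counts were 7 and 1 (16.6% and 21.9% of all tested), at 20% CR 7 and 1 (17.1% and 22.6%), and at 30% CR 7 and 1 (13.7% and 19.5%). At all 4 levels, 6 were past 1.5-fold downward and 1 upward, against 7.44% and 12.4% of all tested. The 6 were the dim *Aqp4* probe sets, *Slc1a3* 1388064_a_at, both dimmer *Glul* probe sets and *Ntsr2*. *Aldh1l1* was past it at 10, 20 and 30% only, with a log2 ratio of -0.57 at 5%. The upward probe set was *Slc1a3* 1371130_at throughout.

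**Figure D4:**
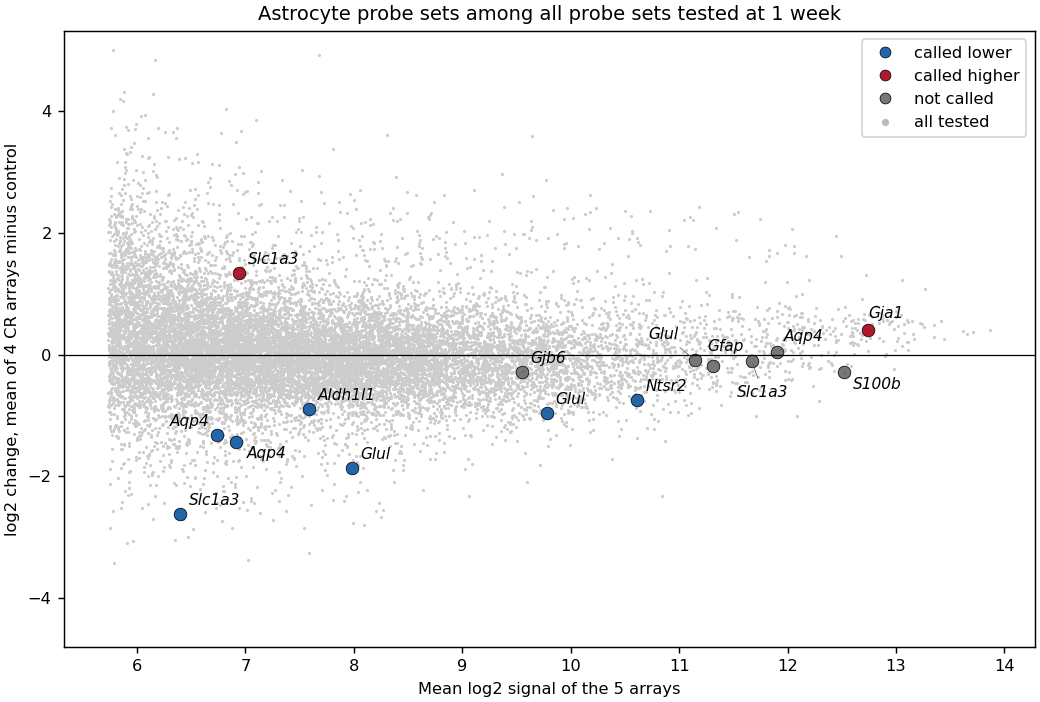
Log2 change (mean of the 4 CR arrays minus control) against the mean log2 signal of the 5 arrays for the 15521 tested probe sets (grey) and the 15 tested astrocyte probe sets, blue where called lower, red where called higher and dark grey where not called. The probe sets with the largest changes are of low or middle signal. The brightest, of *Gja1*, *S100b*, *Aqp4*, *Slc1a3*, *Gfap* and *Glul*, lie between -0.29 and 0.40 in the values as deposited. The next brightest, *Ntsr2* and *Glul* 1386870_at, were called lower, at -0.74 and -0.96. With median scaling *Gja1* stood at -0.04 and *Aqp4* at -0.39.

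The astrocyte changes were read against probe sets of like signal, since dim probe sets were on balance higher in CR. The median log2 change was 0.38 in the lowest decile of the tested probe sets by signal and 0.04 in the highest, and the share called lower was 2.06% and 19.5%. The dim probe sets of *Aqp4* and *Slc1a3* that fell lie in deciles 2, 3 and 4, where 4.12%, 5.28% and 7.73% of all probe sets were called lower. *Ntsr2* and *Glul* 1386870_at lie in the highest decile. So does the bright *Gja1* probe set, and 26.5% of that decile were called higher. *Slc1a3* 1371130_at, which rose, lies in decile 4, where 11.3% were called higher. Of all tested probe sets, 0.1% had a lower log2 change than *Slc1a3* 1388064_a_at, 0.8% than *Glul* 1367633_at and 9.6% than *Ntsr2*, while the bright *Gja1* probe set stood at the 72.0th percentile.

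Beyond the markers, other genes that astrocytes are known for were taken from 7 lists by function, with the brightest probe set of each gene. Of the 114 genes listed, 103 were on the array under a single symbol and 79 were tested, of which 22 were called lower (27.8%) and 6 higher (7.59%), with a median log2 change of -0.26. With median scaling 47 were lower and 4 higher, with quantile scaling 20 and 5, and with cyclic loess scaling 22 and 5. Over all tested probe sets the shares were 11.0% and 14.5%, and 21.4% and 19.5% of the probe sets in the highest 2 deciles of signal were called lower. With median scaling 5057 of all 15521 tested probe sets were lower and 1017 higher. The median of all tested was then -0.41, against -0.7 for the listed genes. The summed signal of the 10 markers themselves (brightest probe sets) was 26478 to 27864 on the CR arrays and 28324 on the control array.

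In the list of energy and lipid metabolism 7 of 16 tested genes fell and none rose, with a median of -0.47. Over all tested probe sets 11.0% were lower and 14.5% higher. With median, quantile and cyclic loess scaling 14, 6 and 8 genes of the list fell. Under the same scalings 5057, 1311 and 1814 of all 15521 tested probe sets were called lower. *Clu*, the lipoprotein clusterin, had 3081, 2780.1, 2579 and 3269 in CR, against 5834 in control, so that it fell by 1.0 (log2; SD 0.15, adjusted p = 8.9e-04). *Pygm*, a glycogen phosphorylase, had 300.0, 235, 209 and 178 in CR, against 435 in control, and *Psat1*, an enzyme of serine synthesis, had 924, 902, 832 and 994 in CR, against 1741 in control. Both fell, by 0.94 (SD 0.32, adjusted p = 0.025) and 0.93 (SD 0.11, adjusted p = 0.001) on the log2 scale. A pair of very bright genes of this list did not pass. *Apoe*, the main lipoprotein of astrocytes, changed by -0.16 ± 0.06 (adjusted p = 0.25), and *Aldoc*, a glycolytic aldolase, by -0.14 ± 0.04 (adjusted p = 0.27; log2, SD, n = 4).

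In the list of transmitter handling 1 of 8 tested genes fell and none rose, with a median of -0.34. It was *Got1*, the cytosolic aspartate aminotransferase, which interconverts glutamate and aspartate and is not particular to astrocytes. It had 394, 356, 364 and 516 in CR, against 1480.1 in control, and fell by 1.88 in log2 units (SD 0.25, adjusted p = 3.7e-04). The GABA transporter *Slc6a11* (GAT-3) was under the filter, with 28.4, 31.6, 13.5 and 17.1 in CR, against 18.9 in control.

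Of the potassium, pH and endfoot genes 2 of 8 tested fell and none rose, with a median of -0.23. *Mlc1*, a membrane protein of the endfeet, had 620.2, 544, 590.0 and 692.5 in CR, against 1248 in control, and fell by 1.03 in log2 units (SD 0.15, adjusted p = 0.0014). *Atp1b2*, a sodium pump subunit, fell by 0.31 (SD 0.03, adjusted p = 0.043). *Kcnj10*, the Kir4.1 potassium channel, was under the filter, with 28.2, 36.7, 32.6 and 11.8 in CR, against 14.2 in control, on both sides of it. Among the receptors 1 of 9 tested fell and none rose: *S1pr1*, a receptor for sphingosine-1-phosphate that endothelium also carries, at -0.72 ± 0.10 on the log2 scale (SD, n = 4; adjusted p = 0.0032).

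Transcription factors moved both ways, with 3 lower and 4 higher of 13 tested and a median of -0.16. Of the nuclear factor I genes, a family that drives the start of gliogenesis, *Nfia* and *Nfib* rose. *Nfia* had 932, 1244, 1276 and 1021 in CR, against 427 in control, and *Nfib* had 381, 504, 523 and 409 in CR, against 164 in control. Their log2 changes were 1.37 ± 0.22 and 1.45 ± 0.22 (SD, n = 4; adjusted p = 8.1e-04 and 0.0011). Their relative *Nfix*, named after its values were seen, had 206, 211, 148 and 169 in CR, against 283 in control, all below it without passing (log2 change -0.64 ± 0.25, SD, n = 4; adjusted p = 0.078). *Id4*, an inhibitor of helix-loop-helix factors, rose by 1.13 ± 0.25 (adjusted p = 0.0027). Its relative *Id3* fell by 1.49 (SD 0.35, adjusted p = 0.0033), *Sox2* by 0.77 (SD 0.11, adjusted p = 0.005) and *Hopx* by 0.61 (SD 0.18, adjusted p = 0.048), all on the log2 scale, the last lost with quantile and cyclic loess scaling. *Sox9*, the factor most used as an astrocyte label, is not on the array under a single symbol. The 4 higher calls held in number under all 3 other scalings.

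Among secreted and surface proteins 6 of 18 tested fell and 1 rose, with a median of -0.01. *Agt*, angiotensinogen, which in brain comes mainly from astrocytes, had 1192, 1306, 1167 and 1364 in CR, against 2627.5 in control. It fell by 1.07 in log2 units (SD 0.11, adjusted p = 5e-04). *Cspg5*, a brain proteoglycan, fell by 1.58 (SD 0.12, adjusted p = 0.0025) and *Cd9*, a tetraspanin that oligodendrocytes also carry, by 1.14 (SD 0.11, adjusted p = 6.7e-04). *Cst3*, cystatin C, was called higher (0.34 ± 0.08, adjusted p = 0.03), lost its call under the 3 other scalings and was at -0.10 with median scaling.

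Genes of reactive astrocytes gave 2 lower calls and 1 higher among 7 tested of 16 on the array, with a median of -0.26. *Vim*, vimentin, the filament partner of GFAP, had 1122, 1053, 1165 and 1081 in CR, against 1659 in control, and fell by 0.59 in log2 units (SD 0.06, adjusted p = 0.0055). *Serping1*, the complement C1 inhibitor, fell by 1.04 (SD 0.41, adjusted p = 0.043), a call lost with quantile scaling. *S100a10*, the annexin partner p11, rose by 0.47 ± 0.07 (adjusted p = 0.02), but only by 0.03 and without a call with median scaling.

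**Figure D5:**
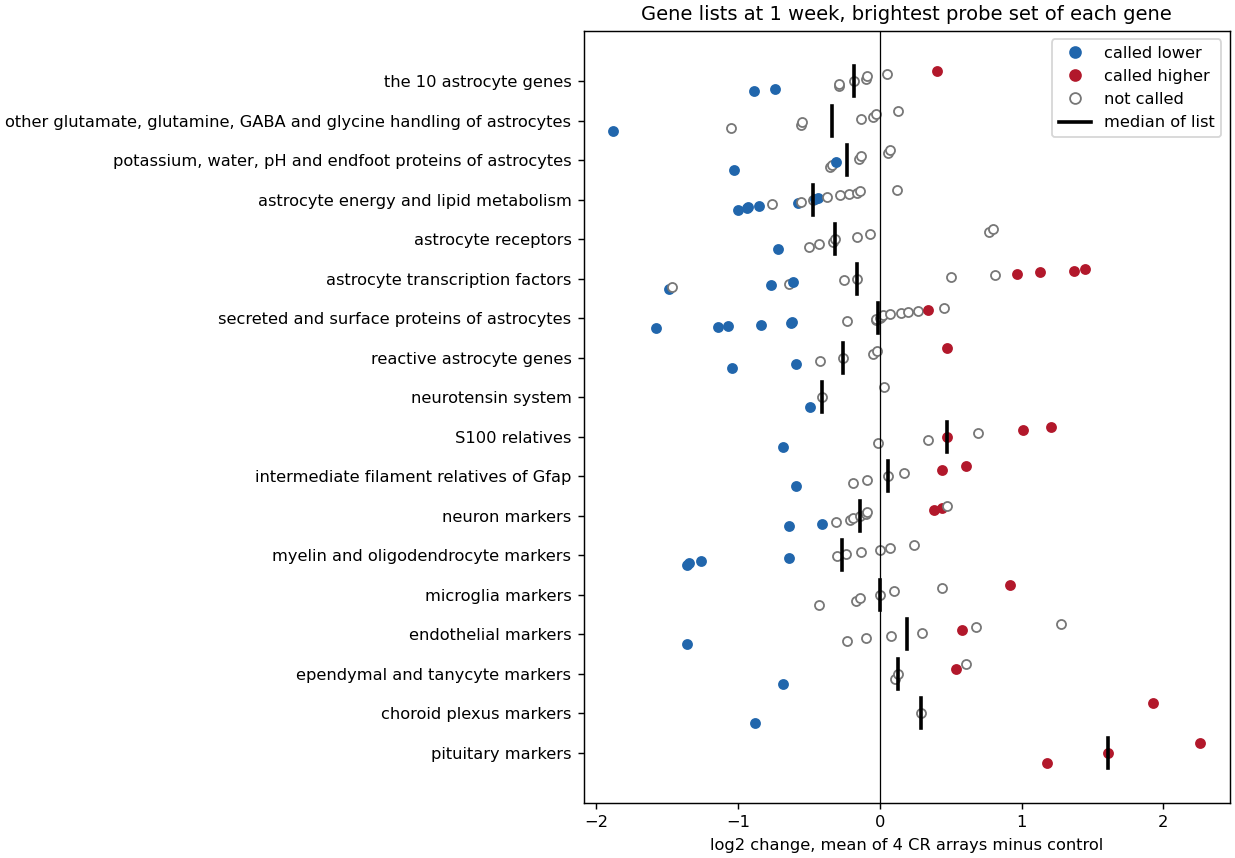
Log2 change (mean of the 4 CR arrays minus control) of the brightest tested probe set of each gene, by gene list, with blue lower, red higher and grey not called by limma, and a black bar at the list median. Energy and lipid genes have 7 lower and no higher calls, and transcription factors have both. The 3 pituitary genes are all higher, *Lhb* with no call under quantile scaling. With median scaling 14 energy and lipid genes were lower, as were 5057 of all 15521 tested probe sets.

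Some markers of other cell types were called too, and no marker on the array of any of these lists was at a signal of 0. Over all tested probe sets 11.0% were called lower and 14.5% higher. With median scaling 5057 of all 15521 were lower and 1017 higher. Counts in lists this small were not tested against these shares. Myelin and oligodendrocyte markers fell in 4 of 10 tested genes and rose in none (median -0.27), led by *Ugt8* (-1.36), *Mog* (-1.35) and *Mal* (-1.26 on the log2 scale). Of the 6 not called, *Mbp* (0.07) and *Cnp* (0.24) lay above control on all 4 CR arrays. *Mobp* was level with it, and *Mag* (-0.30), *Ermn* (-0.24) and *Cldn11* (-0.13) were lower. These 6 were named after their values were seen. The summed myelin signal was 24243 to 26415 on the CR arrays and 26620.4 on the control array. Neuron markers had 2 lower and 2 higher calls of 11 (median -0.14) and sums of 21038 to 22623 against 23279. With median, quantile and cyclic loess scaling the neuron markers had 7, 4 and 3 lower and 0, 1 and 1 higher calls, and the myelin markers 9, 6 and 4 lower and 0 higher. Microglia markers had 1 higher call of 7 (sums 2290 to 2493 against 2360), endothelial markers 1 lower and 1 higher of 8 (1967 to 2337 against 2293), ependymal and tanycyte markers 1 lower and 1 higher of 5 (1712 to 2021 against 1952), and choroid plexus markers 1 lower and 1 higher of 3. Of the last, *Enpp2*, which oligodendrocytes also carry, fell by 0.88 and *Ttr*, transthyretin, rose by 1.93 on the log2 scale. The choroid plexus sum was 1001 to 1071 on the CR arrays and 1564 on the control array with *Enpp2*, but 223 to 309 on the CR arrays and 127 on the control array without it. The pituitary markers *Tshb*, *Lhb* and *Cga*, of 8 on the array and 3 tested, all rose, by 2.26, 1.61 and 1.18 on the log2 scale. *Lhb* lost its call with quantile scaling (log2 change 1.1), and *Tshb* and *Lhb* had low control signals of 43.3 and 33.6. The summed pituitary signal was 2057 to 2867 on the CR arrays and 993 on the control array. The part of these other cell types in the astrocyte values was not tested.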

How the data were processed

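The authors hybridized biotin-labelled cRNA of pooled RNA to the Affymetrix Rat Genome array and deposited MAS5 signal intensity on a linear scale, scaled to an equal trimmed mean (158.8 on each 1 week array). The submitters' processing notes name MAS5 with no version. It subtracts mismatch signal, which leaves low values noisy once logged. Detection calls were not used here. Signals of the 5 brain arrays at 1 week were taken as log2, after 4 zeros were set to 0.1, and 57 control probe sets were left out. The 15521 probe sets whose average log2 signal over the 5 arrays exceeded the 50th percentile were fitted with limma 3.58.1 in R 4.3.3 (lmFit, eBayes with an intensity trend), 4 CR arrays against 1 control array, and adjusted by Benjamini-Hochberg over all of them at 0.05. The lone control array is taken to vary as the CR arrays do, so that p-values reflect only how pools at 4 levels differ, and those are not replicates of a dose. The number of arrays limits the precision. SD is over the 4 CR arrays. Python 3.11.15 with pandas 2.3.3, numpy 2.4.6 and matplotlib 3.10.9 did the rest. The fit was tested on simulated data, where it called 25.4% of 1.5-fold, 58.2% of 2-fold and 86.4% of 4-fold changes between CR and control. The simulated control array was drawn with the spread of the CR arrays, so a control array unlike them was not covered.

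The genes and lists were chosen with earlier results of these data known. All probe sets of the 10 markers are given. From each list the brightest probe set per gene was used, and at most the 3 largest changes per direction among those that passed are named, plus *Kcnj10*, *Slc1a1*, *Slc6a11*, *Vim*, *Apoe*, *Aldoc*, *Sox9*, *Nts*, *Ntsr1* and *Gjb2* whatever their values. Symbols came from the platform annotation, all 10 were found by Entrez identifier in RefSeq's GRCr8 table, and promoter windows came from RefSeq. Alternatives were median, quantile and cyclic loess scaling, no filter, the 75th percentile, a pseudocount of 13.7, robust eBayes, eBayes with no intensity trend, the omission of each CR array, 2-fold in place of 1.5-fold, and the control array as 0% in the trend.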

Additional observations from a re-analysis of the deposited data

How the results depend on the processing

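Everything measured against control rests on 1 control array. Its low-signal share and poly-A spike-in levels differ from those of the CR arrays, and the cause was not tested. The 7 lower and 2 higher calls became 13 lower and 1 higher with median scaling, and the higher count was 1 with quantile scaling, cyclic loess scaling, the 75th percentile filter (11 astrocyte probe sets left) and no intensity trend. Leaving out a CR array gave 7 to 8 lower and 2 higher. Over all tested probe sets, 1712 lower and 2246 higher became 5057 and 1017 with median scaling, 1742 and 4943 without a filter, and 1006 and 1731 without the intensity trend. The bright *Aqp4* probe set 1372190_at turned negative with median (-0.39), quantile (-0.12) and cyclic loess scaling (-0.09), and *Gja1* 1372002_at with median scaling (-0.04). *Gja1* 1372002_at was also not called without the intensity trend (adjusted p = 0.13 by limma). Past 1.5-fold downward at 5, 10 and 20% CR, median scaling gave 10, 11 and 11 in place of 6, 7 and 7, and the upward count at 30% was 0 with median scaling and at 2-fold. *Gfap*, *Aqp4* 1372190_at, *Gjb6*, *Slc1a3* 1368565_at and *Glul* 1367632_at were called lower only with median scaling. The lower calls of the dim *Aqp4*, *Slc1a3* and *Glul* probe sets and of *Ntsr2* were kept under every alternative that tested them. No trend over restriction was called under any alternative. No paired analysis was possible, since each group was 1 pool of its own 5 rats on 1 array.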

Other observations

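Families related to the astrocyte genes were measured with the brightest probe set of each gene. Of 7 S100 relatives, all tested, 3 were called higher and 1 lower by limma, with a median log2 change of 0.47. *S100a1*, a calcium-binding relative of *S100b*, had 1303, 1337, 1289.8 and 1143.5 in CR, against 548 in control, which is 1.21 ± 0.10 higher on the log2 scale (SD, n = 4; adjusted p = 3.4e-04). *S100a11* was higher by 1.01 ± 0.20 (adjusted p = 0.0038), and *S100a16* fell by 0.68 (SD 0.12, adjusted p = 0.007). These 3 calls held under the 3 other scalings.

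Of the intermediate filament relatives of *Gfap*, 7 of 8 were tested, and besides the lower *Vim* there were 2 higher calls. Synemin (*Synm*), which astrocytes also build into filaments, was higher by 0.61 ± 0.15 and the neurofilament gene *Nefm* by 0.44 ± 0.08 on the log2 scale (SD, n = 4; adjusted p = 0.033 and 0.022). Neither was called with median scaling. None of the 2 tested aquaporin relatives (8 on the array), the 2 tested one-carbon relatives of *Aldh1l1* (6 on the array) or the 2 tested glutamate transporter relatives (4 on the array) passed.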
